A study of Rattus norvegicus with 16 samples.

Results

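The genes described here are 9 interferon-stimulated genes, Irf7, Isg15, Usp18, Mx1, Mx2, Oasl, Ifit2, Ifit3 and Rsad2, measured in rat lung. They were listed by name, with earlier results of these data known. Each is the gene of 1 probe set annotated to that symbol alone. All 9 were found among the 14506 genes with a probe set of a single symbol. The series holds 16 Affymetrix rat gene arrays of right lung RNA, each from its own rat. The animals were Sprague-Dawley males of 250 to 300 g in 4 groups of 4. The normoxia group served as the control. The hypoxia group spent 2 weeks in a hypobaric chamber at 362 mmHg, which corresponds to 10% inspired oxygen at sea level. The estradiol group had the same hypoxia and received 17-beta-estradiol (E2), the main circulating estrogen, from a subcutaneous osmotic pump for 3 weeks (75 µg/kg/day), beginning 1 week before the hypoxia. The fulvestrant group had hypoxia, the same estradiol and daily subcutaneous injections of fulvestrant at 3 mg/kg/day, an estrogen receptor antagonist that the labels call nonselective. Whether the rats without estradiol carried pumps is not stated, and no group had fulvestrant without estradiol or either drug in normoxia. The lung vessels were flushed with saline before freezing, and each sample is a whole lung homogenate. In such tissue, a change in the number of cells of a type and a change in RNA per cell cannot be told apart.

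Type I interferons are cytokines that infected or stressed cells release. They bind the receptor made of Ifnar1 and Ifnar2, whose kinases Jak1 and Tyk2 pass the signal on to a complex that includes Stat2 and Irf9 and binds the interferon-stimulated response element (ISRE) in front of their target genes. The targets make proteins that block viruses and proteins that feed back on the pathway, and in lung they are made by epithelium, endothelium and resident macrophages as well as by blood-derived cells.

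Before the values, 3 of the members' promoters are shown because they hold the ISRE core. The motif searched was GAAA, any 2 bases and GAAA again, on both strands of the 250 bases before the transcript start in the RefSeq promoter table of build GRCr8. That table held 5 of the 9 members (Irf7, Ifit3, Rsad2, Mx1 and Oasl). The motif was found in 3 of these 5 windows, against 1140 of 33469 windows of the same length over all genes (3.41%). All 3 matches lie on the strand opposite to the one printed, so they read as the reverse complement, in capitals. The Irf7 stretch is 30 bases on the minus strand at chr1:205800073-205800102, with the first base of the motif 69 bases before the start. The Ifit3 stretch is the full 250 bases on the plus strand at chr1:241527076-241527325, with the motif 44 bases before the start. The Rsad2 stretch is 125 bases on the minus strand at chr6:48788246-48788370, with the motif 147 bases before the start.
Irf7: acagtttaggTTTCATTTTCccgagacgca
Ifit3: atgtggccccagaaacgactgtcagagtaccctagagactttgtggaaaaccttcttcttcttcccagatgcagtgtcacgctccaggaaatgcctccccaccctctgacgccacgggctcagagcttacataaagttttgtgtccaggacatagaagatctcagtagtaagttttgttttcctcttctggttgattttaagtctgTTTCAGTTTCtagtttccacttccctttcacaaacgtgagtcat
Rsad2: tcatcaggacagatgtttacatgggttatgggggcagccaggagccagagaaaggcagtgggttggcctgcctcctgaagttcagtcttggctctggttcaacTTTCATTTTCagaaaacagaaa
These matches describe the letters of the windows; binding was not measured. The Mx1 and Oasl windows held no match, and no window of Isg15, Mx2, Usp18 or Ifit2 was used here.

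The arrays were of even quality. Array medians lay between 7.69 and 7.77 on the log2 scale, the correlation between any 2 arrays over all probe sets was 0.984 to 0.996, and the surfactant genes Sftpc, Sftpb and Sftpa1, which mark lung tissue, were at the top of the intensity range. Some arrays touch the members' results. Normoxia replicate 4 is normoxia by its title but carries hypoxia in its treatment field; it was kept as normoxia, and on the first principal component (22.1% of the variance) it lay at -19.7, within the other normoxia arrays' span of -20.8 to -12.0 and away from the other 12 arrays (-2.05 to 16.3). Estradiol replicates 2 and 3 stood apart on the second component (17.4%), at -25.4 and -22.3 against -5.18 to 7.85 for the other 14 arrays. For some results below, the value without these arrays is given. A result printed without such a value may still depend on them.

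The members were of middling to high intensity, between the 53.0th percentile of all genes for Rsad2 (mean log2 signal 8.80 over 16 arrays) and the 76.9th for Irf7 (10.09). They varied between rats of the same group far more than most genes did. The pooled within-group SD of the 9 members had a median of 0.41 on the log2 scale, against 0.123 for all genes, and the members lay between the 91.7th (Ifit2) and the 99.2nd percentile (Mx2) of that SD. The hypoxia group was the most even: the median SD over members was 0.185 there, 0.457 in normoxia, 0.488 with estradiol and 0.423 with fulvestrant, while the same median over all genes was 0.107, 0.115, 0.129 and 0.0917 in normoxia, hypoxia, estradiol and fulvestrant.

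Within a group, single rats were high or low for most members together. The mean of the 9 members, set against the normoxia mean, was 0.30, 0.13, 0.16 and -0.59 in normoxia replicates 1 to 4. It was 0.61, 0.83, 0.43 and 0.52 in hypoxia. It was 0.66, 0.28, -0.24 and 0.72 with estradiol, and 0.06, -0.19, 0.63 and -0.14 with fulvestrant. All 4 hypoxia arrays therefore lay above all 4 normoxia arrays, while the estradiol and fulvestrant groups each spanned both. Normoxia replicate 4 was the lowest of its group for 9 of 9 members, estradiol replicate 3 for 7 of 9, and fulvestrant replicate 3 was the highest of its group for 9 of 9. In hypoxia, replicate 2 was the highest for 7 of 9. Across the 16 arrays, the 36 pairs of members had a median Pearson r of 0.79 (-0.09 to 0.91), and 0.75 (0.03 to 0.94) once each group was centred on its own mean; the arrays share group structure and RNA preparation, so these are descriptions. Rsad2 and Ifit3 were the least like the rest, with r of 0.54 and 0.42 to the mean of the other 8 members, against 0.84 to 0.95 for the other 7.

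**Figure D1:**
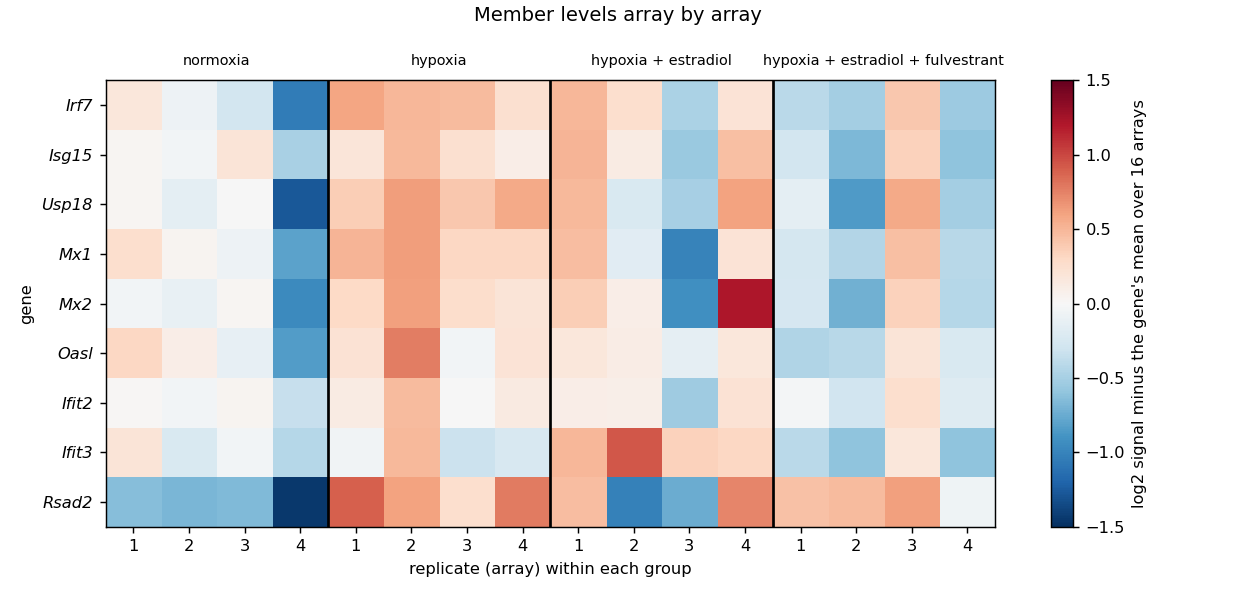
Each row is a gene and each column an array, grouped by condition and numbered by replicate; colour is the log2 signal minus that gene's mean over the 16 arrays. Normoxia replicate 4 is low in every row, fulvestrant replicate 3 is above the gene's mean in every row, and the rows of Ifit3 and Rsad2 differ in pattern from the 7 above them.

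By group mean, hypoxia was the highest of the 4 groups for 8 of 9 members; for Ifit3 it was the estradiol group. The lowest mean was in normoxia for 5 members (Irf7, Mx2, Rsad2, Usp18, Ifit2) and in the fulvestrant group for 4 (Isg15, Mx1, Oasl, Ifit3). With 3 pairs of neighbouring groups in the order of each member, 0 of 27 neighbouring pairs differed at an adjusted p under 0.05 in limma's fit over all genes, and 2 did at an unadjusted p under 0.05: no single step of any order was beyond the spread of the arrays at the adjusted threshold.

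The first comparison asks how the lung's RNA differed after 2 weeks of hypoxia. Rsad2, which encodes viperin, an antiviral enzyme of the endoplasmic reticulum, rose in hypoxia. Its log2 signal was 8.16, 8.12, 8.14 and 7.35 in the normoxia rats and 9.70, 9.40, 9.05 and 9.58 in the hypoxia rats. The groups did not overlap: the lowest hypoxia rat was above the highest normoxia rat. The means were 9.43 ± 0.28 and 7.94 ± 0.40 (SD, n = 4), a difference of 1.49 (SE 0.32, 95% interval 0.80 to 2.17), or 2.80-fold, with an adjusted p of 0.0121 in limma with Benjamini-Hochberg adjustment over all genes. It was the only one of the 9 members that passed; in the same comparison 5.63% of all genes passed, and 3.21% of all genes passed upward. Without normoxia replicate 4, the lowest array, the difference was 1.29 (adjusted p = 0.0397). Counted as hypoxia, as its treatment field has it, that array took the difference to 0.87 and the adjusted p to 0.382. In that fit 40 of 14506 genes passed, against 817 in the main fit.

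The other 8 members were higher by mean in hypoxia but did not pass. Irf7, the transcription factor that amplifies interferon production, read 10.26, 10.01, 9.81 and 9.04 in normoxia and 10.68, 10.59, 10.56 and 10.33 in hypoxia. All hypoxia rats were above all normoxia rats, by a narrow margin between the nearest values. The difference was 0.76 (SE 0.25, adjusted p = 0.0958 in limma). Usp18, the protease that removes Isg15 from proteins and blocks signalling at the receptor, read 9.04, 8.86, 9.00 and 7.74 in normoxia and 9.38, 9.64, 9.41 and 9.58 in hypoxia. Here too the groups did not overlap, and normoxia replicate 4 lay far under the other 3. The difference was 0.85 (SE 0.32, adjusted p = 0.142 in limma). The SD was 0.62 in normoxia and 0.13 in hypoxia (n = 4 each).

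Mx1 and Mx2, GTPases that trap viral nucleocapsids, are neighbours on chromosome 11 with 1 annotated gene between them in RefSeq. Mx1 read 9.69, 9.47, 9.36 and 8.63 in normoxia and 9.94, 10.06, 9.74 and 9.74 in hypoxia. Mx2 read 9.99, 9.92, 10.07 and 9.08 in normoxia and 10.34, 10.65, 10.30 and 10.23 in hypoxia. Neither gene's groups overlapped, but neither difference passed: Mx1 0.58 (SE 0.28, adjusted p = 0.26) and Mx2 0.61 (SE 0.35, adjusted p = 0.341) in limma. The sequences of the probes were not used here, so any cross-hybridisation between these 2 related genes was not tested.

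For the remaining 4 members the groups overlapped. Isg15, the ubiquitin-like protein that is joined to other proteins after interferon, ranged from 8.69 to 9.37 in normoxia and from 9.28 to 9.66 in hypoxia, a difference of 0.33 (SE 0.24). Oasl, an antiviral protein related to the 2'-5' oligoadenylate synthetases, ranged from 8.37 to 9.52 and from 9.17 to 9.97, a difference of 0.42 (SE 0.22). Ifit2, which acts against viral RNA translation, differed by 0.26 (SE 0.16), and Ifit3, its partner protein, by 0.09 (SE 0.20). Their adjusted p-values in limma were 0.471, 0.286, 0.389 and 0.858.

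Counted over the list, 9 of 9 differences were above 0 (58% of all genes were), 5 of 9 members had hypoxia arrays wholly above the normoxia arrays (6.74% of all genes did), and 3 of 9 had an unadjusted p under 0.05 upward (11.5% of all genes). The list was chosen with earlier results of these data known, so these shares describe it and are no test. The members' median difference was 0.58, against 0.026 for all genes. One normoxia rat carried part of this. Without normoxia replicate 4 the median was 0.37 and 8 of 9 differences were above 0; those of the members other than Rsad2 ran from -0.01 for Ifit3 to 0.54 for Usp18.

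**Figure D2:**
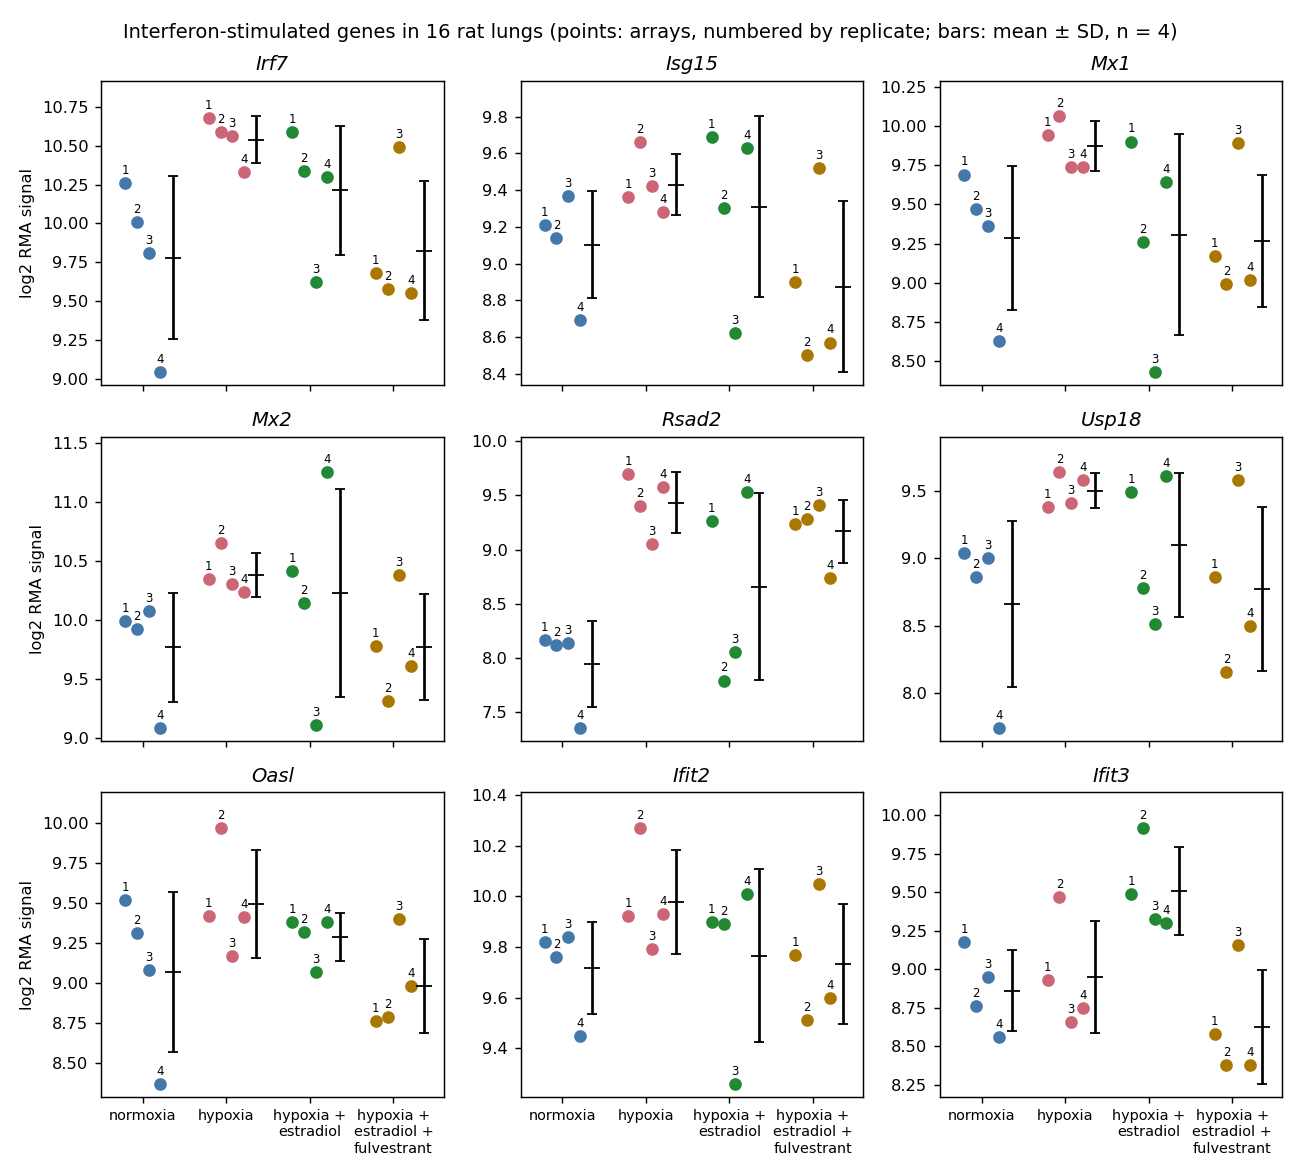
Log2 RMA signal of each member in every array, with points numbered by replicate and bars for mean ± SD (n = 4 per group); each panel has its own vertical scale, which does not start at 0. Rsad2 shows 4 hypoxia arrays at 9.05 to 9.70 above 4 normoxia arrays at 7.35 to 8.16, and Ifit3 shows the estradiol group at 9.30 to 9.92 above the fulvestrant group at 8.38 to 9.16.

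The second comparison, estradiol in hypoxia against hypoxia, asks what the hormone added. No member passed (0 of 9 in limma, with Ifit3 higher and Rsad2 lower at an unadjusted p under 0.05), in a comparison in which 0.772% of all genes passed. At the unadjusted level 6.9% of all genes were higher and 9.2% lower. Rsad2 was split within the estradiol group: replicates 1 and 4 read 9.26 and 9.53, within the hypoxia range of 9.05 to 9.70, and replicates 2 and 3 read 7.79 and 8.05, near the normoxia arrays. Its mean was 8.66 ± 0.87 (SD, n = 4), a difference of -0.77 from hypoxia (SE 0.32, adjusted p = 0.260 in limma). Replicates 2 and 3 are the arrays that stood apart on the second component. Without both of them the Rsad2 difference was -0.03.

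Ifit3 was the single member with a higher mean under estradiol than under hypoxia alone. Its signal was 9.49, 9.92, 9.33 and 9.30 with estradiol and 8.93, 9.47, 8.66 and 8.75 in hypoxia. Hypoxia replicate 2 lay within the estradiol range and the other 3 hypoxia rats lay under it. The difference was 0.56 (SE 0.20, adjusted p = 0.205 in limma). Without estradiol replicates 2 and 3 it was 0.45.

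The other 7 members had differences between -0.57 and -0.13. Mx1 was the lowest of these, at 9.90, 9.26, 8.43 and 9.64 with estradiol, a difference of -0.57 from hypoxia (SE 0.28, adjusted p = 0.339 in limma). The low rat carried much of it: without replicate 3 the Mx1 difference was -0.27, and without replicates 2 and 3 it was -0.11. Mx2 had the widest group of the series, 10.41, 10.14, 9.11 and 11.25, which holds the second lowest and the highest rat of all 16; its difference was -0.15 (SE 0.35). Usp18 (9.49, 8.78, 8.51 and 9.61) and Irf7 (10.59, 10.34, 9.62 and 10.30) differed by -0.41 and -0.33, and without replicates 2 and 3 by 0.05 and -0.09. Oasl and Ifit2 each differed by -0.21 and Isg15 by -0.13. No member's groups were separate, as 6.65% of all genes' groups were. The members' median difference was -0.21, against -0.022 for all genes, and 1 of 9 was above 0 (42.8% of all genes). Without estradiol replicates 2 and 3 the median was -0.02 and 4 of 9 were above 0.

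The third comparison, fulvestrant with estradiol against estradiol, both in hypoxia, asks what the receptor antagonist changed. Again 0 of 9 members passed in limma, with 1 at an unadjusted p under 0.05, downward (7.2% of all genes); 0.0483% of all genes passed. That one was Ifit3, at 8.58, 8.38, 9.16 and 8.38 with fulvestrant against 9.49, 9.92, 9.33 and 9.30 with estradiol. The 2 groups did not overlap, which was so for 4.27% of all genes in the downward direction. The means were 8.62 ± 0.37 and 9.51 ± 0.28 (SD, n = 4), a difference of -0.88 (SE 0.20, 95% interval -1.32 to -0.45), or 1.85-fold lower, with an adjusted p of 0.076 in limma. Without estradiol replicates 2 and 3 it was -0.77 (adjusted p = 0.373). Without estradiol replicate 4 it was -0.95 with an adjusted p of 0.038, and over the 16 fits that left out 1 array the adjusted p ranged from 0.038 to 0.191.

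Rsad2 went the other way by mean, at 9.24, 9.28, 9.41 and 8.74 with fulvestrant, a difference of 0.51 from estradiol (SE 0.32, adjusted p = 0.498 in limma). The fulvestrant rats were all above the 2 low estradiol rats, and none was above the highest estradiol rat (9.53). Without estradiol replicates 2 and 3 the difference was -0.23. The other 7 members had differences from -0.45 (Mx2) to -0.03 (Ifit2), with Isg15 at -0.43, Irf7 at -0.39, Usp18 at -0.32, Oasl at -0.30 and Mx1 at -0.04. In the fulvestrant group these 7 genes shared 1 high rat, replicate 3, which read 10.49 for Irf7, 9.52 for Isg15, 9.58 for Usp18 and 9.89 for Mx1. The other 3 fulvestrant rats read 9.55 to 9.68 for Irf7. The median over members was -0.32, against 0.005 for all genes, and 1 of 9 was above 0 (51.5% of all genes). Without fulvestrant replicate 3 the median was -0.59, with Irf7 at -0.61, Usp18 at -0.59 and Mx1 at -0.25; without estradiol replicates 2 and 3 it was -0.62 with 0 of 9 above 0. Over the fits that left out 1 array it ranged from -0.59 to -0.15.

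**Figure D3:**
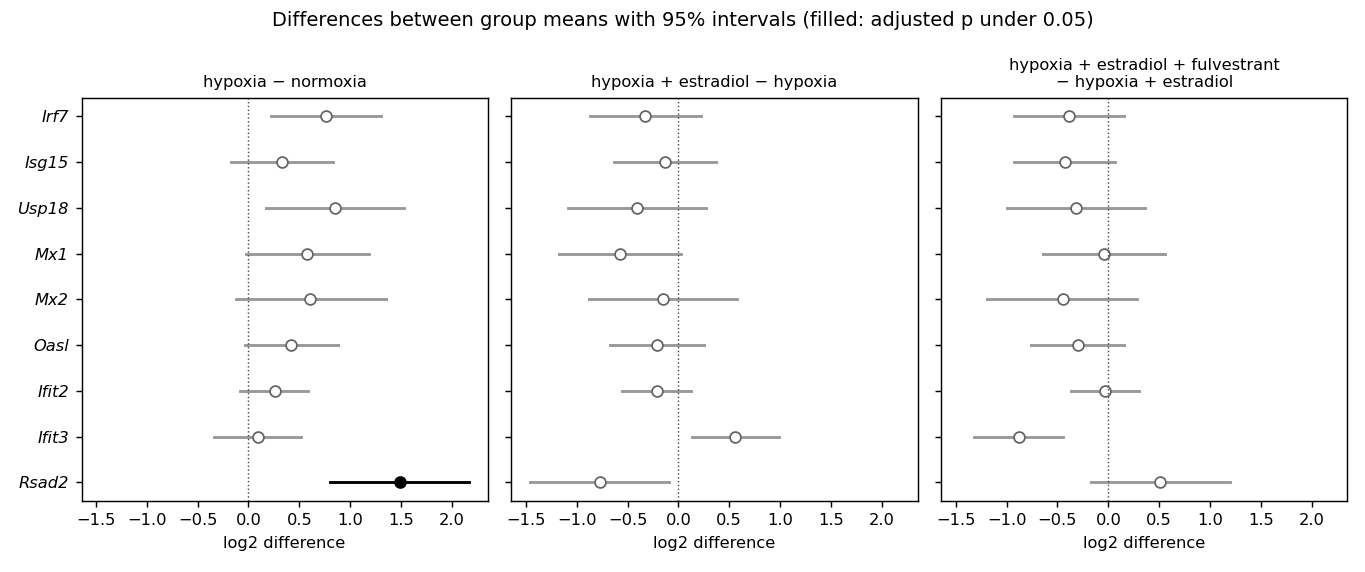
Log2 differences between group means for each member with 95% intervals from limma, in the 3 main comparisons; the dotted line is no difference and a filled point has an adjusted p under 0.05. Rsad2 in hypoxia against normoxia (1.49) is the single filled point, and the Ifit3 interval lies above 0 for estradiol against hypoxia and below 0 for fulvestrant against estradiol.

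The 2 treated groups were also set against normoxia. These comparisons share the normoxia arrays with the first one and the treated arrays with the others, so they are not separate evidence. In the fulvestrant group Rsad2 was above every normoxia rat, with a difference of 1.23 (SE 0.32), or 2.34-fold, and an adjusted p of 0.0522 in limma, just outside the threshold; 2.96% of all genes passed there and 7.13% had separate groups upward. Without normoxia replicate 4 the difference was 1.03 (adjusted p = 0.151). In the estradiol group the Rsad2 difference was 0.72 (SE 0.32, adjusted p = 0.254 in limma), where 5.21% of all genes passed. Replicates 2 and 3 held the 2 lowest Rsad2 values of that group. With only replicates 1 and 4 kept there, the Rsad2 difference was 1.45 (adjusted p = 0.00534 in limma), and 325 of 14506 genes passed. Ifit3 in the estradiol group was above every normoxia rat, by 0.65 (SE 0.20, adjusted p = 0.0837 in limma), as 5.03% of all genes were, and by 0.53 (adjusted p = 0.32) without replicates 2 and 3. The count of members called was 0 of 9 in both, with 2 at an unadjusted p under 0.05 for estradiol (9.44% of all genes upward) and 1 for fulvestrant (8.52%). For estradiol 9 of 9 differences were above 0 (50.1% of all genes), from 0.02 to 0.72, and for fulvestrant 5 of 9 (51.3%), from -0.24 to 1.23. Normoxia replicate 4 bore on these counts: without it 6 of 9 were above 0 for estradiol and 1 of 9, Rsad2, for fulvestrant. Without fulvestrant replicate 3 the latter count was also 1 of 9.

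Fulvestrant with estradiol against hypoxia alone gave 9 differences below 0, from -0.73 to -0.24, where 43.3% of all genes were above 0. The median was -0.56 against -0.016 for all genes. None of the 9 passed in limma; 5 had an unadjusted p under 0.05, a level that 3.89% of all genes reached downward. These were Usp18 (-0.73), Irf7 (-0.71), Mx1 (-0.61), Isg15 (-0.56) and Oasl (-0.51), with adjusted p-values from 0.605 to 0.715. In this comparison 0% of all genes passed, so the adjusted values there are high throughout.

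Ifit2 and Ifit3 lie next to each other on chromosome 1 with 0 annotated genes between them in RefSeq. The difference between the 2 genes within each rat, Ifit3 minus Ifit2, averaged -0.85 ± 0.16 in normoxia, -1.03 ± 0.17 in hypoxia, -0.25 ± 0.37 with estradiol and -1.11 ± 0.15 with fulvestrant (SD, n = 4). With estradiol it was -0.41, 0.03, 0.07 and -0.70 in replicates 1 to 4, so replicates 2 and 3 lay highest. The difference of means was 0.77 for estradiol against hypoxia and -0.85 for fulvestrant against estradiol, without overlap in either case, and 0.47 and -0.55 without replicates 2 and 3. Each had an exact two-sided permutation p of 0.0286, the smallest that 70 splits of 4 against 4 allow, and 0.1714 after Benjamini-Hochberg adjustment over the 12 such tests run on this pair and on Mx2 minus Mx1. These tests were chosen after the values were seen, and none passed after adjustment. For Mx2 minus Mx1 the smallest exact permutation p was 0.0857. Probe sets differ in response, so the size of the gap between 2 genes has no meaning as a level. Its change between groups is described here, and whether the 2 probe sets respond alike was not tested.

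The 5 named genes outside the list whose pattern was most like the members' were themselves interferon-stimulated. They were ranked by Pearson r to the members' mean over the 16 arrays, with placeholder symbols starting with LOC or RGD skipped. The 5 highest were Oas1b (0.92), Oas2, Rig1, Ube2l6 and Dhx58 (0.91 each). Oas1b and Oas2 belong to the oligoadenylate synthetase family; Rig1, for which RefSeq gives Ddx58 as a synonym, and Dhx58 sense viral RNA; and Ube2l6 is the enzyme that hands Isg15 to its targets. Of the 50 most alike genes in that ranking, 21 were on the pathway lists used here. Those lists hold 116 measured genes besides the members, of 14506 genes in all. None of these 5 passed in any comparison: in hypoxia against normoxia Ube2l6 differed by 0.56 (adjusted p = 0.0698 in limma) and Oas2 by 0.80 (adjusted p = 0.169), and 3 of the 5 had an unadjusted p under 0.05.

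The wider pathway was read from lists of genes by role. Of 5 interferon ligands measured none was called by limma in any of the 6 comparisons, and at an unadjusted p under 0.05 there was 1 difference, in estradiol against hypoxia. Of 4 receptor chains, Ifngr2, a chain of the interferon-gamma receptor, rose with fulvestrant against normoxia (0.31, adjusted p = 0.0348 in limma); Ifnar1, of the type I receptor, was not called, with differences from -0.06 to 0.16. In the JAK-STAT relay of 4 measured genes, Jak2, the kinase of the interferon-gamma receptor, rose with estradiol against hypoxia (0.29, adjusted p = 0.0419) and against normoxia (0.28, adjusted p = 0.0167). Jak1, Stat2 and Irf9 were not called, and Ifnar2 and Tyk2 had no probe set of their own symbol alone. Of 15 nucleic acid sensing genes, Tbk1, the kinase that activates Irf3, fell in hypoxia (-0.37, adjusted p = 0.0215), and the adaptor Myd88 rose with estradiol against normoxia (0.34, adjusted p = 0.0408). Irf3 itself was not called.

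Among 51 other type I interferon-stimulated genes, 2 rose in hypoxia and none fell; the share called upward, 3.92%, is close to the 3.21% of all genes. Cmpk2, a mitochondrial nucleotide kinase, rose by 0.54 (adjusted p = 0.0478 in limma), and Lgals3bp, a secreted galectin-binding protein, by 0.52 (adjusted p = 0.00541). The median of the 51 was 0.06, with 33 above 0 (58% of all genes were). At an unadjusted p under 0.05 in limma, 11 of the 51 were higher and 4 lower, against 11.5% and 8.98% of all genes. By limma none of the 51 was called for estradiol against hypoxia, fulvestrant against estradiol or fulvestrant against hypoxia, where 12, 9 and 10 had an unadjusted p under 0.05. Of these, 4 were higher and 8 lower for estradiol against hypoxia, 6 and 3 for fulvestrant against estradiol, and 1 and 9 for fulvestrant against hypoxia. The shares of all genes higher and lower were, in that order, 6.9% and 9.2%, 7.57% and 7.2%, and 3.07% and 3.89%. Against normoxia, the macrophage receptor Siglec1 rose with estradiol (0.88, adjusted p = 0.0482; 0.55 and 0.0598 without estradiol replicate 3) and the death ligand Tnfsf10 fell (-0.67, adjusted p = 0.00417), and with fulvestrant the virus-tethering protein Bst2 fell (-0.51, adjusted p = 0.0213). Array by array, the mean of these 51 moved over a narrower span than the members. It was 0.18, 0.16, -0.08 and -0.27 above the normoxia mean in normoxia and 0.09 to 0.17 in hypoxia, so here the hypoxia arrays lay within the normoxia range.

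**Figure D4:**
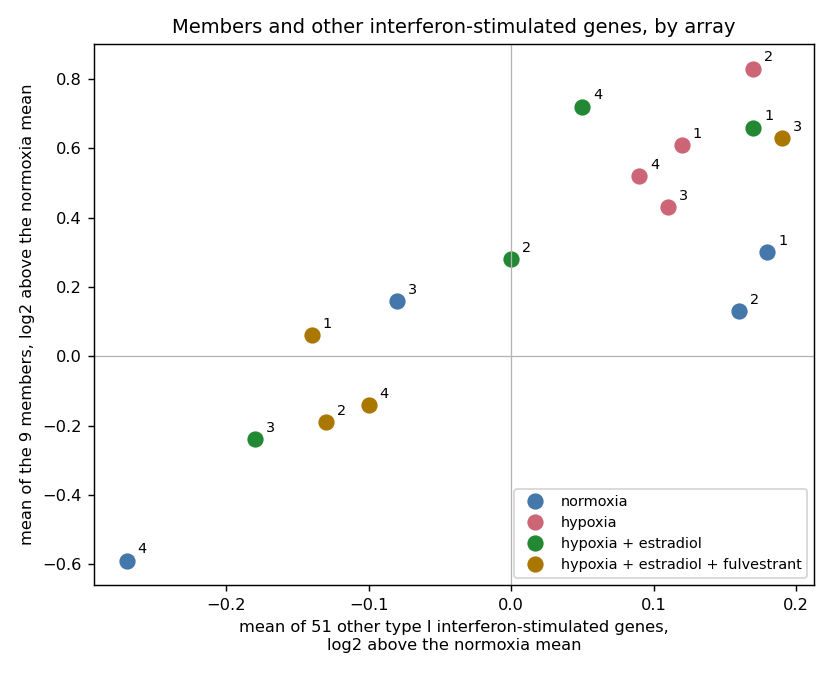
Each point is an array, coloured by group and numbered by replicate: the mean log2 signal of 51 other type I interferon-stimulated genes (horizontal) against that of the 9 members (vertical), both relative to the normoxia mean. Normoxia replicate 4 is lowest on both axes (-0.27 and -0.59), fulvestrant replicate 3 lies among the hypoxia arrays on the vertical axis (0.63), and the groups separate more on the vertical than on the horizontal axis.

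Of 24 interferon-gamma-responsive genes, Serping1, an inhibitor of complement C1, rose in hypoxia (0.30, adjusted p = 0.0194 in limma), and the GTPase Gbp5 fell with estradiol against normoxia (-0.77, adjusted p = 0.00827). Of 14 genes that restrain interferon signalling, the receptor kinase Axl rose in hypoxia (0.33, adjusted p = 0.0145) and with estradiol against normoxia (0.34, adjusted p = 0.014). Across all these lists there were 14 calls in 12 of 116 genes, shares near or under those of all genes: 4.31% against 5.63% in hypoxia against normoxia, 0.862% against 0.772% for estradiol against hypoxia, 5.17% against 5.21% for estradiol against normoxia and 1.72% against 2.96% for fulvestrant against normoxia. Lgals3bp, Tnfsf10 and Gbp5 remained called whichever of the 8 arrays of their comparison was left out; each of the other 11 calls was lost without at least 1 of those arrays, and that of Cmpk2 without any single one (adjusted p = 0.0585 to 0.122). Even those 3 were not called under every alternative. Lgals3bp was not called once normoxia replicate 4 was moved to the hypoxia group (difference 0.25, adjusted p = 0.472 in limma), where 40 of 14506 genes passed. Tnfsf10 and Gbp5 were not called with only the 2 groups in the fit (adjusted p = 0.0508 and 0.0515), nor Gbp5 without estradiol replicates 2 and 3 (-0.58, adjusted p = 0.0796).

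Markers of other cells moved with the same groups. In hypoxia against normoxia, where 5.63% of all genes were called, 5 of 9 alveolar macrophage markers rose (median difference 0.63), and their mean lay at 0.26 to 0.83 above the normoxia mean in hypoxia against -0.13 to 0.08 in normoxia. In the same comparison 11 of 12 natural killer and cytotoxic cell markers fell (median -0.91) and 8 of 13 T cell markers fell (median -0.60). Of 13 monocyte and interstitial macrophage markers 4 rose, of 6 B cell markers 2 fell, and of 9 endothelial markers 3 rose and 2 fell. None of 9 plasmacytoid dendritic cell markers, the cells known for the largest interferon output, was called by limma in hypoxia against normoxia (median -0.20, 2 at an unadjusted p under 0.05). Of 7 erythrocyte markers 1 rose (median 1.35). With estradiol against hypoxia, where 0.772% of all genes were called, 7 of 13 neutrophil markers rose (median 1.48). Their mean lay at 0.30 to 1.33 above the normoxia mean with estradiol, highest in replicates 2 and 3, at -0.79 to -0.14 in hypoxia and at -0.11 to 0.27 with fulvestrant. For fulvestrant against estradiol none of the 13 was called by limma (median -0.81), where 0.0483% of all genes were called. The part of these cells in the values of Rsad2 and Ifit3 was not tested.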

How the data were processed

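The authors deposited log2 values made with RMA and Partek, per the submitters' processing notes; versions and settings are not given in the sources used here. RMA corrects background, aligns the arrays' distributions and summarises each probe set, which hides any change common to most genes. The table held 29214 probe sets on 16 arrays, with array medians of 7.69 to 7.77; arrays carry no count depth, and 4 arrays a group limit the precision.

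Of the probe sets, 15310 had 1 gene symbol in the platform annotation, 323 several and 13581 none. The brightest probe set was kept for each of 14506 genes, 527 of which had several; each member had 1. limma 3.58.1 (R 4.3.3) was fitted to all genes and arrays with 4 group means, and p-values were adjusted by Benjamini-Hochberg over all genes at a threshold of 0.05; the scripts were tested on simulated data. Groups follow the sample titles. Replicate numbers follow submission order and pair nothing, and no batch is given. Each limma p-value sets a difference between group means against the spread between rats, estimated over the 4 groups together. Folds are 2 to the power of the log2 difference.

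The members and lists were chosen with earlier results of these data known. Named genes are the members, the pathway genes called, 5 signalling genes always named, and the 5 genes most like the members' mean, placeholder symbols aside. Alternatives, 10 in number, changed normalization, centring, filter, probe choice, variance model, weights, samples and the label of normoxia replicate 4; each array was also left out in turn. Promoter windows came from RefSeq (GRCr8).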

Additional observations from a re-analysis of the deposited data

Results flagged for a closer look

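In 7 of 76 checks of a gene's 4 values in a group, 1 array lay far from the other 3, by a gap past Dixon's 95% critical value. Chance gives about 5% of independent checks. These checks were not independent: the genes moved together across the same rats, and 5 were chosen for their likeness to the members. Normoxia replicate 4 was the low array for 4 genes. It read 7.35 for Rsad2, where the others read 8.12 to 8.16, and 7.74 for Usp18, where the others read 8.86 to 9.04. It read 9.08 for Mx2 (others 9.92 to 10.07) and 7.36 for Ube2l6 (others 7.84 to 7.88).

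Fulvestrant replicate 3 was the high array for 2 genes, at 10.49 for Irf7 (others 9.55 to 9.68) and 10.76 for Stat2 (others 10.49 to 10.53). Estradiol replicate 3 was low for Ifit2, at 9.26 against 9.89 to 10.01.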

How the results depend on the processing

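Fulvestrant against normoxia apart, the count of members called held under most of the 10 alternatives in each comparison. So did the direction of most of the 35 member differences followed. These were 9 in each of the 3 main comparisons and 8 in the others, those with an unadjusted p under 0.05 in limma. The other 19 of 54 member and comparison pairs were not followed there, and 9 of them changed sign when 1 array was left out. Outside the fits that left out an array, the 35 differences gave 350 values. Of these, 334 kept both direction and side of the threshold, 9 changed sign, 6 crossed it upward and 1 downward. With normoxia replicate 4 counted as hypoxia, 0 members were called in hypoxia against normoxia and the median member difference was 0.12. Calls fell over all genes as well, to 40 of 14506 from 817. Oasl (-0.03) and Ifit3 (-0.09) changed sign in that comparison, as did Isg15 (0.02), Mx2 (0.11) and Oasl (0.02) in estradiol against hypoxia. Without estradiol replicates 2 and 3, the 2 lowest of that group for Rsad2, 1 member (Rsad2) was called in estradiol against normoxia. In the same fit Isg15 (0.22), Mx2 (0.45) and Usp18 (0.05) changed sign in estradiol against hypoxia, and Rsad2 (-0.23) in fulvestrant against estradiol. In fulvestrant against normoxia, 1 member, Rsad2, was called after a further quantile normalization (adjusted p = 0.047 in limma) and without the dimmest 25% of genes (0.0447). It was also called with only the 2 groups in the fit (0.0088) and with array weights (0.0155). The same held without estradiol replicates 2 and 3 (0.00247) and without any single estradiol array (0.0242 to 0.0428). Those arrays are not part of this comparison: the Rsad2 difference stayed at 1.23 and its SE was 0.20 to 0.31, against 0.32. Under the other alternatives it was not called, with an adjusted p in limma of up to 0.401. Nor was it called when any other single array was left out (up to 0.157, without fulvestrant replicate 3). Over all fits that left out 1 array, the count of members called ranged from 0 to 1 in fulvestrant against estradiol (1, Ifit3, without estradiol replicate 4) and from 0 to 1 in fulvestrant against normoxia. In those fits the single-member differences of the 3 main comparisons that changed sign ranged from -0.09 to 0.19 for Ifit3 in hypoxia against normoxia, from -0.25 to 0.10 for Isg15 and -0.49 to 0.22 for Mx2 in estradiol against hypoxia, and from -0.33 to 0.16 for Mx1 and -0.20 to 0.05 for Ifit2 in fulvestrant against estradiol. Against normoxia, sign changes came for Mx1 (-0.20 to 0.31), Oasl (-0.02 to 0.36) and Ifit2 (-0.04 to 0.21) with estradiol, and for Irf7 (-0.20 to 0.21), Usp18 (-0.19 to 0.32), Mx1 (-0.24 to 0.11), Mx2 (-0.22 to 0.16), Oasl (-0.32 to 0.06) and Ifit2 (-0.09 to 0.09) with fulvestrant. Rsad2 in hypoxia against normoxia ranged from 1.29 to 1.61 and was called in all 16 of these fits (adjusted p = 0.00484 to 0.0467). The cause of these changes was not tested. No paired analysis was possible because the replicate numbers follow submission order and the labels pair no rats. SEs of 0.16 to 0.35 limit which differences of the members could be detected with 4 arrays a group.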
